A study of Mus musculus with 18 samples.

Results

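The genes described here are 9 members of the bone morphogenetic protein (BMP) pathway: the receptors Bmpr1a, Bmpr1b and Bmpr2, the readout genes Id1, Id2, Id3 and Id4, and the inhibitory Smads Smad6 and Smad7. They were taken by name, as every probe set whose single gene symbol in the platform annotation is one of the 9. That gave 23 of the 45101 probe sets on the array, for 9 of 18193 genes that had a symbol of their own. Of the 23, 22 passed the filter on dim signal and entered the test, beside 22351 tested probe sets in all.

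Affymetrix mouse genome-wide expression arrays were hybridised with RNA from sorted skin cells of 6 mice, 3 sampled at postnatal day 25 (PD25) and 3 at PD21. All mice carried K5tTA, in which the keratin 5 promoter of basal epithelial cells drives the tetracycline-off activator, and pTRE-H2B-GFP, with FvB and CD1 parents. All were fed doxycycline at 1 g per kg of food, from PD22 to PD25 or from PD18 to PD21, so that no new histone-bound GFP was made and each division diluted it. Each mouse gave 3 fractions, sorted on the bulge surface markers CD34 and α6-integrin and, for the bulge, on GFP, which made 18 arrays.

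The 6 groups of 3 arrays were divided bulge at PD25 (1 to 2 divisions during the chase), undivided bulge at PD25 (0 divisions), non-bulge cells at PD25, and the same 3 fractions at PD21. Every group carried both transgenes and received the drug, and no untreated or non-transgenic mouse was analysed here. The bulge is the stem cell niche of the hair follicle, and the division count covers only cells in which the K5 promoter had loaded the label. Non-bulge cells were not split by division.

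BMP ligands bind complexes of type I receptors (Bmpr1a, Bmpr1b) and the type II receptor Bmpr2, whose kinases activate receptor Smads that enter the nucleus with Smad4. Id genes are classic direct targets of this signal, and their proteins bind E proteins and keep them off DNA, while Smad6 and Smad7 are feedback inhibitors induced by it. In the hair follicle, BMP signalling is known for holding bulge stem cells in quiescence, and its decline accompanies their activation.

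RefSeq promoter windows of the GRCm38.p6 build, each from 250 bases before to 50 bases after a start site, matched 7 of the 9 members. For Smad6, Bmpr1a and Bmpr1b that site lay inside the listed bounds of the gene, not at their outer end. A pair of palindromes was searched, each of which reads the same on both strands: GTCTAGAC, a Smad-binding palindrome, and GGCGCC, a GC-rich element bound by BMP Smads in Id gene control regions. GTCTAGAC stood in 70 of the 32851 RefSeq windows (0.213%) and GGCGCC in 3898 (11.9%), and neither overlaps the other. GTCTAGAC was found in 1 member window, that of Smad6, 4 bases ahead of the start site of that window (position -4). GGCGCC was found in those of Id2 (position -231), Id4 (-148), Bmpr2 (-105) and Bmpr1a (-198), and neither in that of Id3 or in the 3 windows of Bmpr1b. Printed here are the windows of 3 Id genes that moved together in these cells, with and without the GC-rich element, and of Smad6. They run 5′ to 3′ on the strand of the gene, and capitals mark the palindrome found. A match describes the letters and is not evidence of binding. The Id2 window lies at chr12:25096043-25096342 on the minus strand, the Id3 window at chr4:136143572-136143871 on the plus strand, the Id4 window at chr13:48260866-48261165 on the plus strand, and the Smad6 window at chr9:64022010-64022309 on the minus strand.
Id2: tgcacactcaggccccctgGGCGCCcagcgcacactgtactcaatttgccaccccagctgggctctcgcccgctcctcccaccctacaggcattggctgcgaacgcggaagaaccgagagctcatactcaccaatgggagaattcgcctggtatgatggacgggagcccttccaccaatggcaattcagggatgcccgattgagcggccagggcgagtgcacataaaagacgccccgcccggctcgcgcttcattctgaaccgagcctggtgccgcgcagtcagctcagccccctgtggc
Id3: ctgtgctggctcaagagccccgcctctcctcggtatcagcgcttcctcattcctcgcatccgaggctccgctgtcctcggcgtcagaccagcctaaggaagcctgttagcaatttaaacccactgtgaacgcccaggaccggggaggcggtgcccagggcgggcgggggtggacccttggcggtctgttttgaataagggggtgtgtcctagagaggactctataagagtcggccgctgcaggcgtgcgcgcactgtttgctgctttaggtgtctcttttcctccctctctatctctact
Id4: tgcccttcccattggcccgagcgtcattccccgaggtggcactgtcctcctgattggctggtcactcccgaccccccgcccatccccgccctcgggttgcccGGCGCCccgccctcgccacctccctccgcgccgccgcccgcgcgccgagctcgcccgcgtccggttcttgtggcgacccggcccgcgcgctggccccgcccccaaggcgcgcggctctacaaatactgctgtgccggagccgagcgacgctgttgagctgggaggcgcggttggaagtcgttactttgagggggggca
Smad6: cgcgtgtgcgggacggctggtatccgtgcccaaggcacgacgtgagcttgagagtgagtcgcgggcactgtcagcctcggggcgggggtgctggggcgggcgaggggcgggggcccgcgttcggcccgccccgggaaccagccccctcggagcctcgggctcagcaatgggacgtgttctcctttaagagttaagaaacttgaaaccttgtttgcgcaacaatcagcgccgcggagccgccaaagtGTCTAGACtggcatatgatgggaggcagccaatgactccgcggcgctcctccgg

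All levels are log2(signal + 16) of the deposited array signal, and a level is compared only within a probe set. Values of a group are given in the order mouse 1, mouse 2 and mouse 3, and each member is followed through its main probe set, the tested one with the highest mean. Fold changes are log2 differences with the standard error of a limma fit over all 18 arrays, and a probe set passed at a Benjamini-Hochberg adjusted p of 0.05 over the 22351. Medians of the arrays lay between 6.25 and 7.05 on the same scale. In sorted bulk RNA, fewer cells of a type and less RNA per cell cannot be told apart.

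Facts of the whole series bear on the reading. Array mean signals fell into a set of 9 (810.8 to 868.9) and a set of 9 (666.7 to 730.6), split by mouse: PD25 mouse 1 and PD21 mice 1 and 2 had the higher signals. The labels name no batch. All 3 fractions of a mouse lie in 1 set, so differences within a mouse are also within a set, whereas the ages are spread unevenly over the sets. The Gapdh 3′ to 5′ signal ratio, a sign of RNA integrity and amplification, ran from 3.1 to 11.6 and overlapped between all groups.

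Markers bear on the fraction labels. Cd34, whose protein was sorted on, averaged 12.06 in divided and 12.39 in undivided bulge against 4.97 in non-bulge cells at PD25, and 8.93 in divided and 12.73 in undivided bulge against 4.52 in non-bulge cells at PD21. Itga6, which codes for the other sorting marker, averaged 12.86 to 13.14 in all groups. Of 8 bulge markers, 6 exceeded non-bulge cells in divided bulge at PD25 and 2 at PD21, while 6 did so in undivided bulge at each age. Within PD21, 5 of the 8 were lower in divided than in undivided bulge, which moved with the member results on that fraction. Whether that fraction held other cells was not tested.

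All 4 Id genes were higher in undivided bulge at both ages when set against non-bulge cells. In divided bulge Id2, Id3 and Id4 were higher at PD25, where Id1 missed the threshold, and Id4 was at PD21. The counts that follow leave out Id2 1453596_at, whose mean lay below the median of every array. Of the other 7 Id probe sets, 7 were higher in the undivided bulge of each age, with median log2 fold changes over non-bulge cells of 3.08 at PD25 and 3.34 at PD21, and in divided bulge 6 were higher at PD25 and 3 at PD21. Over all tested probe sets the undivided medians were -0.04 and -0.08.

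Id1 codes for the founding member of the family and is a widely used BMP readout. At PD25 Id1 read 8.97, 10.15 and 10.37 in divided bulge and 10.00, 10.38 and 10.52 in undivided bulge, against 7.13, 9.47 and 8.64 in non-bulge cells. At PD21 Id1 read 8.56, 8.41 and 9.41 in divided bulge and 10.37, 10.14 and 10.69 in undivided bulge, against 8.15, 8.48 and 8.48 in non-bulge cells. The undivided bulge lay above non-bulge cells at both ages with no overlap, whereas the divided bulge overlapped with non-bulge cells at both.

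Id2, which in skin is also linked to the control of epithelial differentiation, separated more widely. At PD25 Id2 read 10.56, 10.81 and 11.30 in divided bulge and 11.95, 11.56 and 11.65 in undivided bulge, against 8.46, 9.81 and 8.54 in non-bulge cells. The PD21 levels of Id2 were 9.10, 9.84 and 9.74 in divided bulge and 11.70, 11.89 and 11.67 in undivided bulge, against 8.90, 8.53 and 9.40 in non-bulge cells. The undivided levels of Id2 ran from 11.56 to 11.95 over all 6 mice, and the divided levels of PD21 overlapped with the non-bulge ones.

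Id3, often induced together with Id1, had nearly constant levels in undivided bulge. Id3 read 10.55, 11.92 and 12.76 in divided bulge and 12.55, 12.46 and 12.60 in undivided bulge at PD25, against 9.31, 11.07 and 9.97 in non-bulge cells. In the mice of PD21, Id3 read 9.38, 9.55 and 10.48 in divided bulge and 12.23, 12.43 and 12.39 in undivided bulge, against 8.88, 8.64 and 9.52 in non-bulge cells. For Id3 the divided bulge of PD25 was the most variable group (SD 1.12, n = 3) and the undivided bulge of the same mice the least (SD 0.07, n = 3).

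Id4, which in the nervous system is known for controlling neural progenitors, was separated from non-bulge cells in every bulge fraction. Id4 read 14.94, 13.52 and 14.01 in divided bulge and 14.78, 13.60 and 13.79 in undivided bulge at PD25, against 10.05, 11.81 and 11.08 in non-bulge cells. The PD21 levels of Id4 were 12.87, 13.07 and 12.45 in divided bulge and 15.29, 14.95 and 13.69 in undivided bulge, against 10.39, 10.83 and 9.94 in non-bulge cells. No divided or undivided array overlapped with a non-bulge array of its age, and at PD21 the 3 groups formed 3 separate steps.

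**Figure D1:**
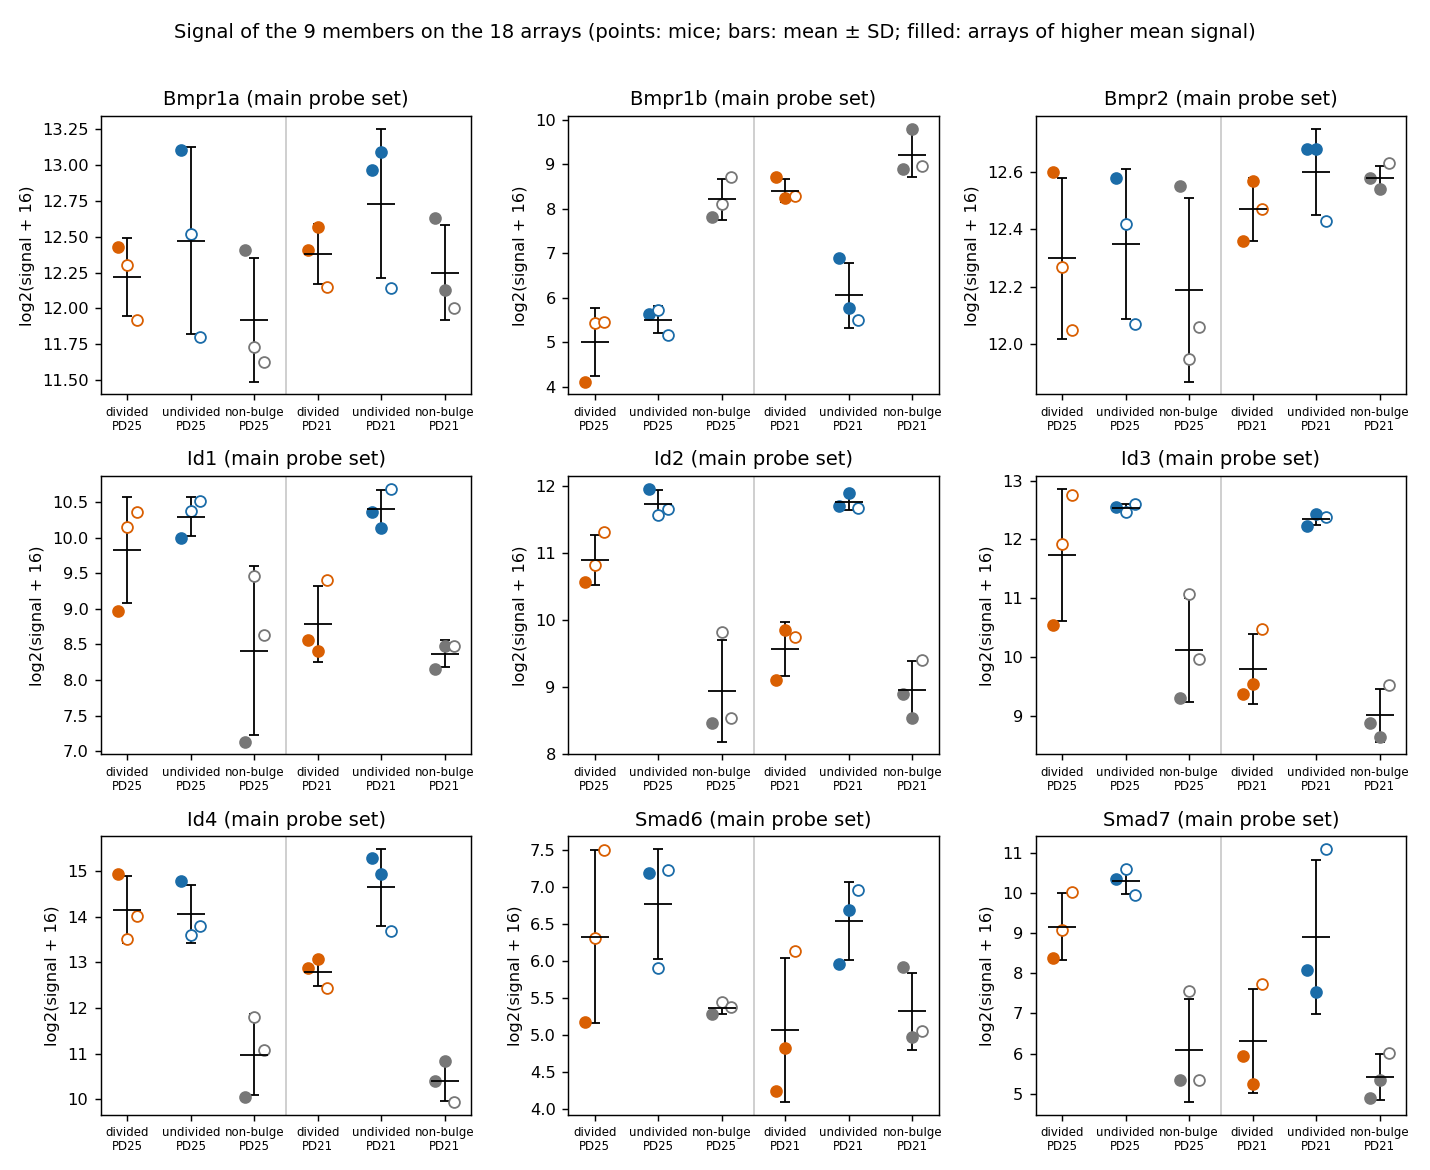
Levels of the 9 members on the 18 arrays, as log2(signal + 16) of the main probe set on the y axis, with the 6 groups on the x axis. Points are mice 1 to 3 from left to right, bars give mean ± SD (n = 3), filled points are arrays of the set with higher mean signal, and each panel has its own y range that does not start at 0. Id1, Id2 and Id3 are high in undivided bulge at both ages and low in non-bulge cells, with the divided bulge of PD21 near the non-bulge level, and Bmpr1b runs the opposite way.

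The question behind the bulge comparison is which genes mark the niche cells at each age. In undivided bulge against non-bulge cells at PD25, 10 of the 22 member probe sets passed, 9 higher and 1 lower, where 4.85% of all tested probe sets were higher and 4.12% lower. The log2 fold changes were 1.88 ± 0.44 for Id1 (adjusted p = 0.00564), 2.78 ± 0.32 for Id2 (1.16e-06), 2.42 ± 0.42 for Id3 (0.000299) and 3.08 ± 0.44 for Id4 (2.3e-05). At PD21, 12 of 22 passed, 10 higher and 2 lower, beside 5.08% and 4.32% of all tested probe sets. Id1 was then 2.03 ± 0.44 higher (adjusted p = 0.00276), Id2 2.81 ± 0.32 (1.02e-06), Id3 3.34 ± 0.42 (5.26e-06) and Id4 4.26 ± 0.44 (2.44e-07). For the main probe sets, every Id difference between undivided bulge and non-bulge cells was positive in each of the 6 mice, from 0.90 for Id1 in PD25 mouse 2 to 4.90 for Id4 in PD21 mouse 1. Among these main probe sets, the call of Id1 at PD25 was the 1 that depended on a single array, with 1.24 and an adjusted p of 0.0654 without non-bulge mouse 1 of PD25.

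In divided bulge against non-bulge cells at PD25, 9 of 22 passed, 8 higher and 1 lower, where 4.58% of all tested probe sets were higher and 2.47% lower. Id2 was 1.96 ± 0.32 higher (adjusted p = 0.000176), Id3 1.63 ± 0.42 (0.0157) and Id4 3.17 ± 0.44 (2.38e-05). Id1 had a log2 fold change of 1.42 ± 0.44 with an adjusted p of 0.052, positive in 3 of 3 mice. With the mouse as a random block, Id1 had an adjusted p of 0.0107, and with the mouse as a fixed term 0.00524. The Id3 call was lost without the variance trend (adjusted p = 0.0752), with only the groups compared (0.0723), and without divided mouse 2 (1.54) or 3 (1.12) or non-bulge mouse 1 (1.22) or 3 (1.55) of PD25. Id1 passed without divided mouse 1 (1.85) or non-bulge mouse 2 (1.95) of PD25, or without divided mouse 3 of PD21 (1.42), which enters only through the spread. It also passed with a pseudocount of 64 (adjusted p = 0.047), quantile normalisation (0.0256), 1 probe set per gene (0.0494), array weights (0.00965) and the array set as a block (0.0062). With a pseudocount of 1, no filter or no variance trend, Id1 did not pass.

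In divided bulge against non-bulge cells at PD21, 3 of 22 passed, all of them Id4 and all higher, where 0.13% of all tested probe sets were higher. The main probe set of Id4 was 2.41 ± 0.44 higher (adjusted p = 0.0124), and 1450928_at and 1423259_at were 1.85 ± 0.27 (0.00229) and 1.69 ± 0.28 (0.007) higher. In the same comparison Id1 had a log2 fold change of 0.42 ± 0.44, Id2 of 0.61 ± 0.32 and Id3 of 0.79 ± 0.42, with an adjusted p of 1 for each. Their 95% confidence intervals reached 1.33, 1.27 and 1.67, so rises of that size are not excluded by 3 mice per group. Leaving out non-bulge mouse 1 (2.41) or 3 (2.18) or divided mouse 1 (2.37) or 2 (2.27) of PD21 ended the call of the main Id4 probe set. Leaving out non-bulge mouse 1 (1.43) or divided mouse 3 (1.49) ended that of 1423259_at, and that of 1450928_at remained in each case. Without a mean-variance trend in the fit, all 3 lost their calls, with adjusted p of 0.0701 to 0.188. With only the groups compared, 1450928_at (adjusted p = 0.0696) and 1423259_at (0.459) lost theirs.

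**Figure D2:**
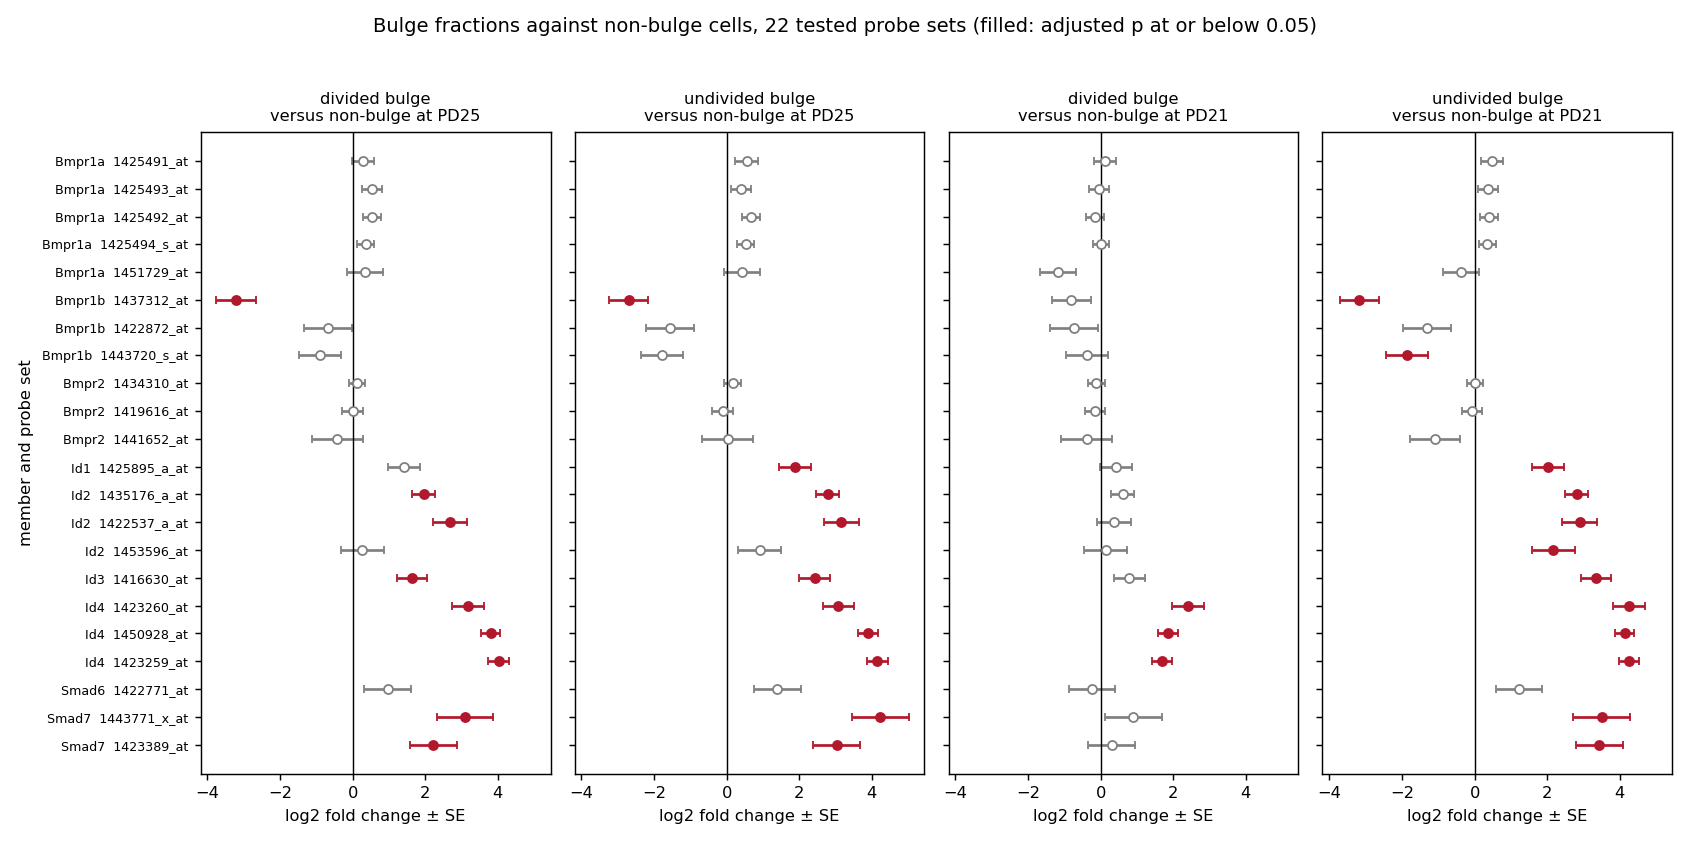
Log2 fold changes of bulge fractions over non-bulge cells (x axis, ± SE, 3 mice per group) for the 22 tested probe sets (y axis) in 4 comparisons, with filled points for an adjusted p at or below 0.05. Id and Smad7 probe sets lie to the right in all 4 comparisons and Bmpr1b to the left. The Id and Smad7 shifts are smallest in divided bulge at PD21, where only the 3 Id4 probe sets are filled. The comparisons of 1 age share their non-bulge arrays.

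Probe sets of 1 gene were compared as a check. The other Id2 probe sets followed the main one over the 18 arrays with Pearson r of 0.90 (1422537_a_at) and 0.71 (1453596_at), and those of Id4 with 0.93 and 0.91. Id2 1453596_at exceeded the array median on 4 of 18 arrays, all of undivided bulge (1 at PD25, 3 at PD21), and so entered the test through the fraction where it was high. Its differences of undivided bulge from non-bulge cells, 0.91 at PD25 and 2.17 at PD21, are therefore given as a description only, although the second is among the 12 counted at PD21. The second is also below the threshold without non-bulge mouse 1 (1.99) or 2 (1.87) or undivided mouse 3 (2.03).

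Other cell types were checked too. None of 8 endothelial markers passed the filter, and Cdh5, Kdr, Tie1, Emcn and Cldn5 lay below the array median on every array, with summed signals of 78 to 279 over all groups. Of 7 dermal fibroblast markers, 3 were tested and Pdgfra, Lum and Dpt lay below the median on every array. The summed fibroblast signal was 1212 to 2715 in divided, 678 to 1041 in undivided and 179 to 550 in non-bulge cells at PD25, and 676 to 1746, 795 to 1176 and 208 to 260 in the same fractions at PD21. At PD25, 3 of the 3 exceeded non-bulge cells in divided and 1 in undivided bulge, and at PD21 1 was higher in each, and 1 was higher in divided than in undivided bulge. Melanocyte markers, 4 of 6 tested and Mlana below the median throughout, summed to 1168 to 1974, 1078 to 1270 and 246 to 593 in divided, undivided and non-bulge cells at PD25, and to 468 to 1186, 1069 to 3881 and 606 to 844 at PD21. Of these 4, 2 were higher in each bulge fraction at PD25 and 1, Mitf, in undivided bulge at PD21, where Mitf was also lower in divided than in undivided bulge. These sums were higher in the bulge at PD25, as the Id genes were. At PD21 the fibroblast sum was higher in both bulge fractions, although Id1, Id2 and Id3 did not pass in divided bulge, and the melanocyte sum was higher in undivided bulge. The part of these cells in the member results was not tested.

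Of 5 basal epidermis markers, Ly6d and Gata3 fell in each bulge fraction at PD25 and in undivided bulge at PD21, and both were higher in divided than in undivided bulge at PD21 and lower in divided bulge at PD25 than at PD21. Among 4 markers of differentiated epidermis, 1 was lower in undivided bulge of PD25 against non-bulge cells. None of the tested immune markers (3 of 6) or muscle markers (1 of 4) passed in a comparison between fractions or ages.

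Smad7, which blocks receptor Smads at activated receptors of both the BMP and TGF-beta branches, followed the Id genes. Smad7 read 8.38, 9.09 and 10.04 in divided bulge and 10.36, 10.62 and 9.96 in undivided bulge at PD25, against 5.33, 7.57 and 5.35 in non-bulge cells. In PD21 mice, Smad7 read 5.95, 5.24 and 7.74 in divided bulge and 8.09, 7.54 and 11.11 in undivided bulge, against 4.88, 5.34 and 6.02 in non-bulge cells. Undivided mouse 3 of PD21 stood well above the other undivided mice of its age, and the divided bulge of PD21 overlapped with both of the other groups.

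Over non-bulge cells, Smad7 was 3.09 ± 0.78 higher in divided bulge at PD25 (adjusted p = 0.0122), 4.23 ± 0.78 higher in undivided bulge at PD25 (0.000509) and 3.50 ± 0.78 higher in undivided bulge at PD21 (0.00338). In divided bulge at PD21 its log2 fold change was 0.90 ± 0.78 (adjusted p = 1). The second Smad7 probe set, 1423389_at, correlated with the main one at r = 0.90 and gave 2.22 ± 0.65, 3.03 ± 0.65, 3.43 ± 0.65 and 0.30 ± 0.65 in the same 4 comparisons, with the same calls. In non-bulge cells the main probe set lay above the array median on 1 of 3 arrays at PD25 and 0 of 3 at PD21, so these fold changes rest on a dim level. It exceeded the median on 11 of 18 arrays and so entered the test mostly through bulge fractions, where it was high. The calls of this main probe set were kept with no filter. The main call in divided bulge at PD25 was lost without divided mouse 3 (2.65) or non-bulge mouse 1 (2.71) or 3 (2.72), and that of 1423389_at without divided mouse 2 (2.35) or 3 (1.56) or non-bulge mouse 1 (1.54), without the variance trend (adjusted p = 0.0626) and with only the groups compared (0.0935).

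Smad6, the inhibitor that acts mainly on the BMP branch, was dim and passed in no comparison. Smad6 read 5.18, 6.31 and 7.50 in divided bulge and 7.18, 5.91 and 7.22 in undivided bulge at PD25, against 5.28, 5.45 and 5.38 in non-bulge cells. At PD21 Smad6 read 4.25, 4.83 and 6.14 in divided bulge and 5.96, 6.69 and 6.96 in undivided bulge, against 5.92, 4.97 and 5.06 in non-bulge cells. The undivided bulge lay above non-bulge cells at both ages without overlap, by 1.40 ± 0.64 at PD25 (adjusted p = 0.227) and 1.22 ± 0.64 at PD21 (0.284). Its probe set exceeded the array median on 5 of 18 arrays, all of them bulge arrays, and so entered the test through the fractions where it was high. Its differences from non-bulge cells are therefore a description only. The share of all tested probe sets that separate without overlap was not counted.

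Of the 3 receptors, 1 passed in any comparison. Bmpr1a, the type I receptor on which follicle differentiation depends in mouse knockouts, was high on every array with 4 of its probe sets. Its main probe set read 12.43, 12.30 and 11.92 in divided bulge and 13.10, 12.52 and 11.80 in undivided bulge at PD25, against 12.41, 11.73 and 11.63 in non-bulge cells. At PD21 the Bmpr1a levels were 12.41, 12.57 and 12.15 in divided bulge and 12.96, 13.09 and 12.14 in undivided bulge, against 12.63, 12.13 and 12.00 in non-bulge cells. The groups of this main probe set overlapped in all comparisons. Of the other Bmpr1a probe sets, 1425492_at and 1425494_s_at lay above non-bulge cells without overlap in undivided bulge, by 0.67 ± 0.25 and 0.52 ± 0.23 at PD25 (adjusted p = 0.115 and 0.196) and by 0.39 ± 0.25 and 0.35 ± 0.23 at PD21 (0.412 and 0.414). Both lay below undivided bulge without overlap in divided bulge at PD21, with -0.55 ± 0.25 and -0.34 ± 0.23 (0.242 and 0.486). In divided bulge at PD25, 1425492_at also lay above non-bulge cells without overlap (0.53 ± 0.25, 0.284), as did the dimmer 1451729_at, which in non-bulge cells was lower at PD25 than at PD21 without overlap.

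None of the 5 tested Bmpr1a probe sets passed in any of the 12 comparisons fitted. The main one had log2 fold changes of 0.55 ± 0.31 (95% interval -0.10 to 1.19) in undivided bulge over non-bulge cells at PD25 and 0.48 ± 0.31 (-0.16 to 1.12) at PD21. With the mouse as a fixed term, 1425493_at passed in divided bulge over non-bulge cells at PD25, with 0.54 and an adjusted p of 0.0344. The untested sixth probe set, 1445413_at, lay below the array median on all 18 arrays.

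Bmpr2, the type II receptor shared by many BMP ligands, was as even in its main probe set. Its main probe set read 12.60, 12.27 and 12.05 in divided bulge and 12.58, 12.42 and 12.07 in undivided bulge at PD25, against 12.55, 11.95 and 12.06 in non-bulge cells. In PD21 mice, Bmpr2 read 12.36, 12.57 and 12.47 in divided bulge and 12.68, 12.68 and 12.43 in undivided bulge, against 12.58, 12.54 and 12.63 in non-bulge cells. The group means ran from 12.19 in non-bulge cells at PD25 to 12.60 in undivided bulge at PD21. The log2 fold change of undivided bulge over non-bulge cells was 0.17 ± 0.23 (95% interval -0.31 to 0.64) at PD25 and 0.01 ± 0.23 (-0.46 to 0.49) at PD21, and no Bmpr2 probe set passed in any comparison. The dim 1441652_at, with r of -0.40 to the main one, was higher at PD25 than at PD21 in undivided bulge without overlap (1.42 ± 0.70, adjusted p = 0.723). In divided bulge, 1419616_at was lower at PD25 than at PD21 without overlap (-0.34 ± 0.28, 0.67).

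Bmpr1b, the type I receptor known from cartilage and ovary, was the one receptor that changed. It read 4.11, 5.44 and 5.45 in divided bulge and 5.64, 5.72 and 5.16 in undivided bulge at PD25, against 7.81, 8.11 and 8.71 in non-bulge cells. The levels of Bmpr1b at PD21 were 8.71, 8.24 and 8.29 in divided bulge and 6.89, 5.76 and 5.50 in undivided bulge, against 8.90, 9.80 and 8.96 in non-bulge cells. Bmpr1b was low in both bulge fractions at PD25 and in undivided bulge at PD21, without overlap with non-bulge cells. In the divided bulge of PD21 it lay below the non-bulge arrays by a smaller margin, also without overlap.

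Bmpr1b fell by 3.21 on the log2 scale (SE 0.54, adjusted p = 0.000247) in divided bulge against non-bulge cells at PD25. In undivided bulge it fell by 2.70 (SE 0.54, 0.00125) at PD25 and by 3.17 (SE 0.54, 0.000215) at PD21. The divided bulge of PD21 differed from non-bulge cells by -0.81 ± 0.54 (adjusted p = 1). Its main probe set exceeded the array median on 10 of 18 arrays, with 1 of undivided bulge at PD21, and lay below it on all 6 bulge arrays of PD25. It thus entered the test mostly through groups where it was high. The calls of this main probe set were kept with no filter. The dimmer probe set 1443720_s_at exceeded the array median on 4 of 18 arrays, none of undivided bulge, and so entered the test through groups where it was high. Its undivided bulge differences from non-bulge cells are therefore a description only, although that at PD21 is among the 12 counted there. They were -1.87 ± 0.58 at PD21 (adjusted p = 0.0412) and -1.78 ± 0.58 at PD25 (0.0543, and 0.0241 with the mouse as a random block). Its PD21 call was lost without non-bulge mouse 1 (-1.99), 2 (-1.90) or 3 (-1.70) or undivided mouse 2 (-1.70) or 3 (-1.72), and at PD25 it passed without non-bulge mouse 2 (-2.28). The PD21 call was also lost with no filter (adjusted p = 0.0537), a pseudocount of 1 (0.0673) or 64 (0.054), quantile normalisation (0.0673) and only the groups compared (0.0855). At PD25 it passed with a pseudocount of 1 (0.044), no variance trend (0.0238), array weights (0.024) and the mouse as a fixed term (0.0451). The probe set 1422872_at passed in no comparison. In divided bulge against non-bulge cells at PD25, 1422872_at had -0.68 ± 0.66 and 1443720_s_at -0.90 ± 0.58, both with overlap and without a call.

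The comparison of divided with undivided bulge asks what distinguishes cells that had recently divided. At PD21, 11 of 22 member probe sets passed, 1 higher and 10 lower in divided bulge, where 3.1% of all tested probe sets were higher and 3.59% lower. Leaving out Id2 1453596_at, which entered the test through undivided arrays, all of the other 7 Id probe sets fell, with a median of -2.28, beside 0.06 over all tested probe sets. Id1 fell by 1.61 on the log2 scale (SE 0.44, adjusted p = 0.0248), Id2 by 2.19 (SE 0.32, 7.87e-05), Id3 by 2.54 (SE 0.42, 0.000325) and Id4 by 1.85 (SE 0.44, 0.00796). Smad7 fell by 2.60 (SE 0.78, 0.0422) and, with 1423389_at, by 3.13 (SE 0.65, 0.00283). Bmpr1b was 2.36 ± 0.54 higher (0.00599). In the same arrays 5 of 8 bulge markers fell, Cd34 by 3.80 (SE 0.45, 9.69e-06) and Sox9 by 2.17 (SE 0.27, 1.68e-05).

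Within mice, the differences of divided from undivided bulge at PD21 were -1.81, -1.73 and -1.28 for Id1, -2.60, -2.05 and -1.93 for Id2, and -2.85, -2.88 and -1.91 for Id3. For Id4 they were -2.42, -1.89 and -1.24, for Smad7 -2.14, -2.30 and -3.37, and for Bmpr1b 1.81, 2.48 and 2.79. Each of these 6 genes moved the same way in 3 of 3 mice, in both array sets. Some calls depended on single arrays. Id1 was lost without undivided mouse 1 (-1.62) or 3 (-1.46) or divided mouse 1 (-1.49) or 2 (-1.42) of PD21, and the main Id4 probe set without undivided mouse 1 (-1.53). The main Smad7 probe set had -1.51 and an adjusted p of 0.291 without undivided mouse 3, and was also lost without divided mouse 1 (-2.42) or 2 (-2.07). Leaving out any of 4 PD25 bulge arrays (undivided mice 1, 2 and 3, and divided mouse 2), which enter only through the spread, raised its adjusted p to between 0.0505 and 0.0552. Model choices ended calls as well: Id1 had an adjusted p of 0.0703 without the variance trend, and main Smad7 had 0.0918 without it, 0.058 with a pseudocount of 1 and 0.0733 with only the groups compared. Id2 1453596_at, a description only, had -2.03, and -2.11 to -1.68 without undivided mouse 1, 2 or 3 or divided mouse 1 or 2 of PD21.

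At PD25, 0 of 22 member probe sets passed by limma, where 0% of all tested probe sets did, and at an unadjusted p under 0.05 the counts were 1 of 22 and 1040 of 22351. That 1 was the main Id2 probe set, with -0.83 ± 0.32 (adjusted p = 0.904 by limma). Id1 had a log2 fold change of -0.47 ± 0.44, Id3 of -0.79 ± 0.42, Id4 of 0.10 ± 0.44, Smad7 of -1.15 ± 0.78 and Bmpr1b of -0.51 ± 0.54, with an adjusted p of 1 for each. The other Bmpr1b probe sets went the other way from the main one, with 0.88 ± 0.66 (1422872_at) and 0.89 ± 0.58 (1443720_s_at, without overlap). For Id3, mouse 1 of PD25 had 10.55 in divided and 12.55 in undivided bulge, while the difference was -0.54 in mouse 2 and 0.17 in mouse 3. Within mice 1, 2 and 3 it was -1.39, -0.74 and -0.35 for Id2 and -1.99, -1.53 and 0.07 for Smad7. Mouse 1 had the most negative difference for each of these and was the 1 PD25 mouse of the higher-signal array set. The 95% interval for Id3 ran from -1.67 to 0.08 and that for Smad7 from -2.75 to 0.46, so falls of that size are not excluded.

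**Figure D3:**
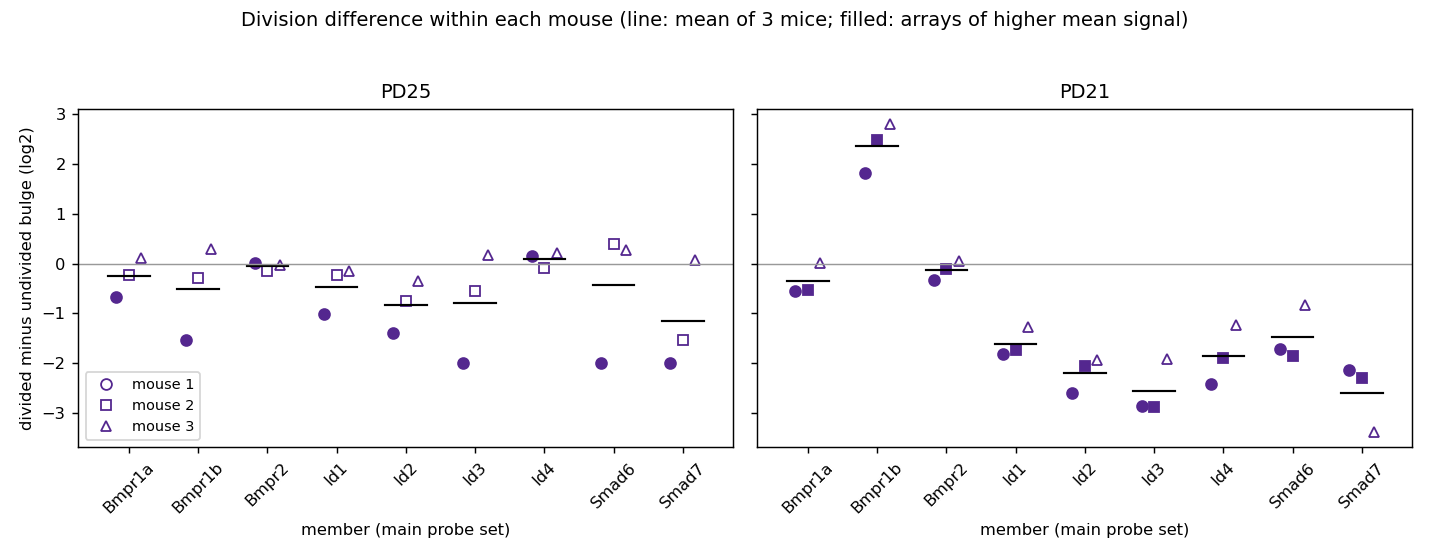
Difference of divided from undivided bulge within each mouse (y axis, log2) for the main probe set of the 9 members (x axis), with PD25 on the left and PD21 on the right. Symbols are mice, filled for arrays of higher mean signal, and lines are means of 3 mice. At PD21 the Id genes, Smad6 and Smad7 lie under 0 and Bmpr1b over 0 in 3 of 3 mice, while at PD25 the mice scatter around or under 0.

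The change of the division difference between the ages was tested itself, as PD25 minus PD21. Of 22 member probe sets 2 passed, both Id4 and both higher, where 0.662% of all tested probe sets were higher. They were 1423259_at with 2.44 ± 0.40 (adjusted p = 0.00428) and 1450928_at with 2.18 ± 0.38 (0.00604). The main Id4 probe set had 1.95 ± 0.62 (0.141), Id3 1.75 ± 0.60 (0.185), Id2 1.37 ± 0.45 (0.164), Id1 1.14 ± 0.62 (0.531), Smad7 1.46 ± 1.10 (0.725) and Bmpr1b -2.87 ± 0.76 (0.0713). With the mouse as a random block, the main Bmpr1b (adjusted p = 0.0198) and the main Id4 probe set (0.048) passed. With the mouse as a fixed term these passed with 0.0253 and 0.034, as did Id3 (0.0382) and Id2 1422537_a_at (0.0417). The other Bmpr1b probe sets, both dimmer, did not pass, with 0.28 ± 0.93 (1422872_at, adjusted p = 0.972) and -0.60 ± 0.82 (1443720_s_at, 0.894) in the main fit. Id3 also passed without divided mouse 1 of PD25 (2.35). Within the array sets of higher and lower mean signal, where 1 of the ages has 1 mouse, the values were 2.49 and 2.21 for 1423259_at and 1.85 and 2.20 for 1450928_at, about as large as over all arrays. Cd34 changed by 3.47 ± 0.64 in the same test (0.00797).

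Across ages, the divided bulge was the fraction in which members changed. At PD25 against PD21, 8 of 22 probe sets passed in divided bulge, 7 higher and 1 lower, where 3.51% of all tested probe sets were higher and 2.65% lower. Id2 rose by 1.33 ± 0.32 (adjusted p = 0.0104), Id3 by 1.94 ± 0.42 (0.00501) and Smad7 by 2.86 ± 0.78 (0.0258), and Bmpr1b fell by 3.41 (SE 0.54, 0.000253). The other Bmpr1b probe sets had -0.69 ± 0.66 (1422872_at) and -0.78 ± 0.58 (1443720_s_at) and did not pass. Id4 rose with 1423259_at (2.79 ± 0.28, 1.44e-06) and 1450928_at (2.32 ± 0.27, 7.33e-06), while its main probe set had 1.36 ± 0.44 (0.0664) without overlap between the ages. Id1 had 1.04 ± 0.44 (0.215). In the same comparison 6 of 8 bulge markers rose.

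The ages lay unevenly over the array sets, so values within a set are given, as a description because 1 arm in each set is a single array. Within the 9 arrays of higher mean signal, with 1 divided array at PD25 and 2 at PD21, Id2 had 1.09, Id3 1.08, Smad7 2.78 and the main Id4 probe set 1.97. Within the 9 of lower mean signal, with 2 divided arrays at PD25 and 1 at PD21, Id2 had 1.32, Id3 1.86, Smad7 1.82 and Bmpr1b -2.84. Directions were those of the pooled fit. Leaving out single divided arrays also ended calls: Id2 without mouse 3 of PD25 (1.13) or mouse 1 of PD21 (1.10), Id3 without mouse 3 of PD25 (1.43), and the main Smad7 probe set without mouse 2 (2.90) or 3 (2.42) of PD25 or mouse 1 (2.68) or 2 (2.32) of PD21. Id2 1422537_a_at (1.78 ± 0.48) was lost without mouse 3 of PD25 (1.10) or mouse 2 of PD21 (1.43). Smad7 1423389_at (2.17 ± 0.65, adjusted p = 0.0476) was lost without mouse 2 (2.29) or 3 (1.50) of PD25 or mouse 1 (2.03) or 2 (1.81) of PD21, and without any of 6 arrays of the other fractions, with an adjusted p of 0.0508 to 0.0617. Model choices ended calls too. Without the variance trend, main Smad7 (0.0663), Smad7 1423389_at (0.0776) and Id2 1422537_a_at (0.0602) were lost. With only the groups compared, 1423389_at (0.09) and 1422537_a_at (0.0629) were lost, and 1423389_at also with a pseudocount of 1 (0.0768) or no filter (0.0547). The main Id4 probe set passed without divided mouse 2 of PD25 (1.68), and without undivided mouse 3 of PD21 or non-bulge mouse 1 of PD25 (1.36, adjusted p = 0.0384 and 0.0442). It also passed with quantile normalisation (0.00107), only the groups compared (0.0441) and the array set as a block (0.00738), and Id1 passed with array weights (0.0299).

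In undivided bulge 0 of 22 member probe sets passed between the ages by limma, where 0.0761% of all tested probe sets did, and 0 had an unadjusted p under 0.05. The log2 fold changes were -0.10 ± 0.44 for Id1, -0.03 ± 0.32 for Id2, 0.19 ± 0.42 for Id3, -0.59 ± 0.44 for Id4 and 1.40 ± 0.78 for Smad7. In non-bulge cells 0 of 22 passed, where 0.0537% of all tested probe sets did, and 1 had an unadjusted p under 0.05, Id3 with 1.10 ± 0.42 (adjusted p = 0.999). The undivided bulge over non-bulge contrast changed between the ages in 0 of 22 and in 0% of all tested probe sets by limma, with 0 and 765 at an unadjusted p under 0.05. The divided bulge over non-bulge contrast changed in 2 of 22, where 0.631% of all tested probe sets were higher: Id4 1423259_at with 2.32 ± 0.40 (adjusted p = 0.0044) and 1450928_at with 1.96 ± 0.38 (0.0116). The call of 1450928_at was lost without the variance trend (0.0703). With the mouse as a block, Id2 1422537_a_at (2.32) also passed, with 0.0276 as a random and 0.0227 as a fixed term. The main Id2 probe set passed without non-bulge mouse 2 of PD25 (1.78, against 1.34 ± 0.45 with all arrays).

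**Figure D4:**
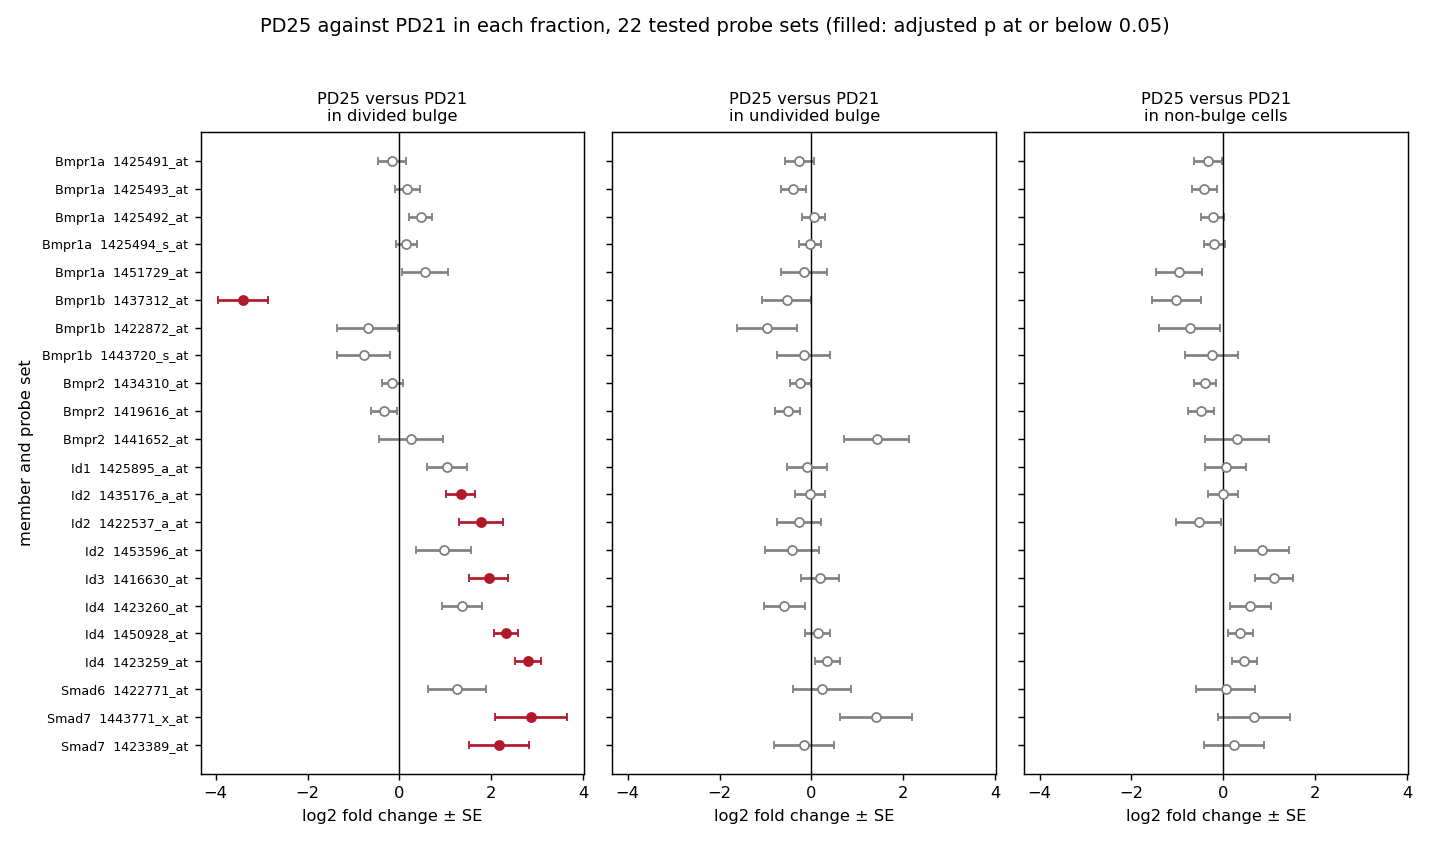
Log2 fold changes of PD25 over PD21 (x axis, ± SE, 3 mice per group) for the 22 tested probe sets (y axis) in divided bulge, undivided bulge and non-bulge cells, with filled points for an adjusted p at or below 0.05. All 8 filled points are in divided bulge, where Id2, Id3, Id4 and Smad7 lie to the right and Bmpr1b to the left.

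The position of the divided bulge between the other fractions puts these values on 1 scale, with 0% at the non-bulge mean and 100% at the undivided mean of the same age. It is a description of log2 means of the main probe sets only. Only genes that passed in undivided bulge against non-bulge cells were placed. At PD25 the divided bulge stood at 75.2% for Id1, 70.3% for Id2, 67.3% for Id3, 103% for Id4, 72.9% for Smad7 and 119% for Bmpr1b. At PD21 it stood at 20.9%, 21.8%, 23.7%, 56.5%, 25.7% and 25.7% for the same genes. Id4 was the member nearest the undivided level at PD21, and the other 5 lay within a few percent of each other.

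Of the 8 bulge markers, 6 were placed in the same way. Krt15 and Itga6 did not pass in undivided bulge against non-bulge cells (0.15 ± 0.52 and -0.10 ± 0.28 at PD25) and were left out. Cd34 stood at 95.5%, Lhx2 at 108%, Sox9 at 101%, Lgr5 at 156%, Nfatc1 at 120% and Tcf7l1 at 91.4% at PD25. At PD21 they stood at 53.7%, 47.6%, 29.3%, 34.6%, 45.8% and 7.66%. At PD25 the 6 markers all stood above Id1, Id2, Id3 and Smad7. At PD21 Id1, Id2, Id3, Smad7 and Bmpr1b fell inside the range of the markers. The main Id4 probe set, at 56.5%, lay above all 6. With Id4 1450928_at and 1423259_at, divided bulge at PD21 lay nearer the non-bulge than the undivided mean, and so below Cd34. Log2 fold changes from non-bulge and from undivided bulge were 1.85 and -2.28 for 1450928_at, and 1.69 and -2.57 for 1423259_at.

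**Figure D5:**
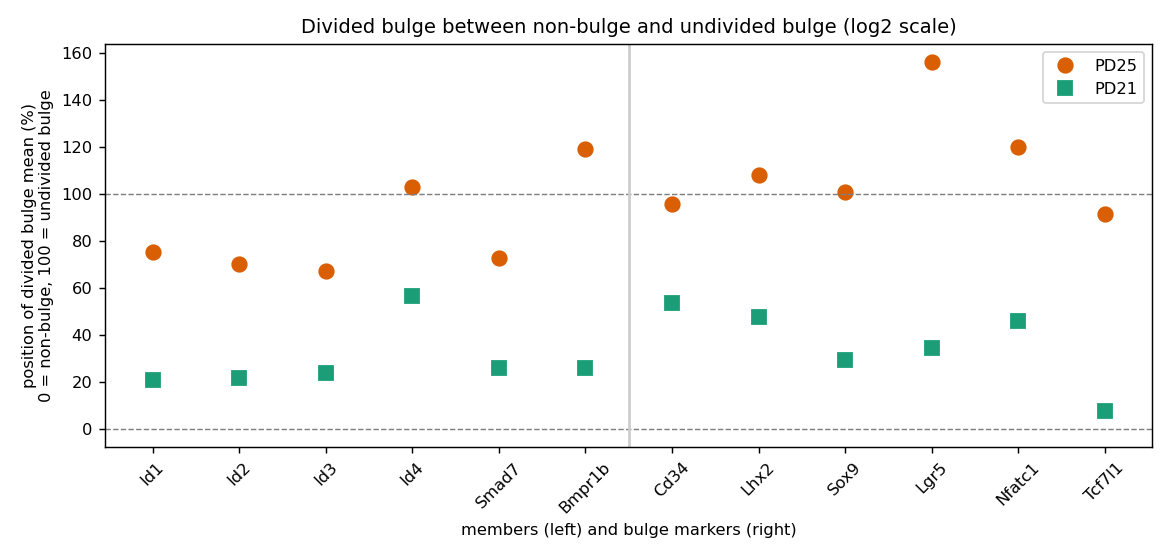
Position of the divided bulge mean on the log2 scale between non-bulge cells (0%) and undivided bulge (100%) on the y axis, for 6 members and 6 bulge markers on the x axis, at PD25 (circles) and PD21 (squares). At PD25 Id1, Id2, Id3 and Smad7 stand between 67.3% and 75.2% and the markers at 91.4% or more, and at PD21 every gene stands lower than at PD25.

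Over the 18 arrays, which share 6 groups and 6 mice, the readouts varied together, as a description. Pearson r was 0.93 between Id1 and Id3, 0.94 between Id2 and Id3, 0.91 between Id3 and Smad7, and 0.50 between Id4 and Smad6. Bmpr1b ran opposite, with r of -0.83 to both Id2 and Smad7, while Bmpr1a and Bmpr2 had 0.77 with each other and between -0.26 and 0.47 with the Id genes.

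The genes with the most similar profile by Pearson r over the 18 arrays were Fbln1 (0.96), Tgm5 (0.94) and Gnb1l (0.93) for Id1, and C1qtnf12 (0.96), Col5a1 and Itgb8 (0.95 each) for Id2. For Id3 they were Fbln1 (0.95), Rab11fip5 and Ndrg4 (0.94 each), and for Id4 S100a4 (0.96), the bulge transcription factor Sox9 (0.95) and the chemokine receptor Cxcr4 (0.94). Smad7 was nearest to Ndrg4 and A530047J11Rik (0.94 each) and Tekt2 (0.93), and Bmpr1b to Fam241a and Tcim (0.94 each) and Rasgrp1 (0.93). Lower values marked the flat or dim members: Golph3 (0.93), Eppk1 and Slc38a2 (0.90 each) for Bmpr1a, Pcmtd1 (0.84), Cav2 and Srsf11 (0.82 each) for Bmpr2, and Mal2 (0.87), Ubr2 (0.86) and Trpm4 (0.85) for Smad6.

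Ligands and antagonists of the pathway were followed beside the members. Of 20 listed genes 11 were measured. In undivided bulge against non-bulge cells, 3 were higher and 1 lower at PD25, and 2 higher and 1 lower at PD21, with medians of 0.38 and 0.70. Grem1, a secreted BMP antagonist, was 4.71 ± 0.36 higher at PD25 (adjusted p = 4.18e-09) and 4.85 ± 0.36 at PD21 (1.66e-09). Fstl1, a secreted follistatin-like BMP modulator, was 4.26 ± 0.47 and 5.16 ± 0.47 higher (7.78e-07 and 3.96e-08). Bmp4 was the ligand that fell, by 4.44 (SE 0.49, 7.52e-07) at PD25 and by 3.90 (SE 0.49, 4.4e-06) at PD21. Bmp6 was 3.50 ± 0.74 higher at PD25 (0.00211) and had 2.20 ± 0.74 at PD21 (0.0631).

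In divided bulge against non-bulge cells, 3 of these 11 were higher and 2 lower at PD25, and 2 were higher and 0 lower at PD21, with medians of 0.63 and 0.23. At PD25 they were Grem1 (4.26 ± 0.36), Fstl1 (4.54 ± 0.47), Bmp6 (2.99 ± 0.74), Bmp4 (-3.10 ± 0.49) and Bmp2 (-1.66 ± 0.43). At PD21 they were Fstl1 (3.07 ± 0.47, adjusted p = 0.00294) and Grem1 (2.01 ± 0.36, 0.0108). Between divided and undivided bulge at PD21, Grem1 fell by 2.85 (SE 0.36, 1.68e-05) and Fstl1 by 2.09 (SE 0.47, 0.00556), and Bmp4 was 3.52 ± 0.49 higher (5.03e-05). Between the ages in divided bulge, Grem1 (2.19 ± 0.36) and Fstl1 (2.59 ± 0.47) rose and Bmp4 fell by 2.50 (SE 0.49). In the tested changes between the ages, Grem1 passed for the division difference (2.40 ± 0.51, 0.0188) and for the divided bulge contrast (2.25 ± 0.51, 0.0302).

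Among other receptors, co-receptors and Smad machinery, 20 of 22 listed genes were measured. At PD25, 1 of the 20 was higher and 1 lower in each bulge fraction against non-bulge cells, beside 4.58% higher and 2.47% lower of all tested probe sets in divided and 4.85% and 4.12% in undivided bulge. At PD21, 0 passed in divided bulge and 1 was lower in undivided bulge, beside 4.32% of all tested probe sets. These shares are near those of all probe sets. The co-receptor Tgfbr3 (betaglycan) fell by 1.76 (SE 0.44, adjusted p = 0.0113) in divided and fell by 3.11 (SE 0.44, 2.18e-05) in undivided bulge at PD25, and fell by 2.21 (SE 0.44, 0.00118) in undivided bulge at PD21. Neo1, a receptor that binds repulsive guidance molecules, the BMP co-receptors, was 1.12 ± 0.26 (0.00695) and 1.43 ± 0.26 (0.000514) higher at PD25 in divided and undivided bulge. Tgfbr3 was 1.71 ± 0.44 higher in divided than in undivided bulge at PD21 (0.0155), and fell by 1.73 (SE 0.44, 0.0163) at PD25 against PD21 in divided bulge.

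All 3 E protein genes, partners of Id proteins, were measured, and Tcf12 was the 1 that passed. It was 1.02 ± 0.25 (adjusted p = 0.01) and 1.09 ± 0.25 (0.00482) higher in divided and undivided bulge at PD25 and 1.41 ± 0.25 (0.000355) higher in undivided bulge at PD21, and it fell by 1.06 (SE 0.25, 0.00765) in divided against undivided bulge at PD21. Of 11 other genes known to respond to BMP, 9 were measured. In divided bulge 2 were higher and 1 lower at PD25 and 0 passed at PD21, and in undivided bulge 4 were higher and 1 lower at PD25 and 3 higher and 1 lower at PD21. The homeobox gene Dlx3 was 3.21 ± 0.68 (0.0028) and 3.06 ± 0.68 (0.00338) higher in divided and undivided bulge at PD25 and 2.65 ± 0.68 (0.011) higher in undivided bulge at PD21. Skil, a Smad co-repressor, was 1.30 ± 0.32 (0.00904), 1.39 ± 0.32 (0.00435) and 2.42 ± 0.32 (7.87e-06) higher in the same 3 comparisons. Hey1 (3.30 ± 0.80, 0.00787) and Atoh8 (2.69 ± 0.81, 0.0342) were higher in undivided bulge at PD25 and Ski (0.71 ± 0.21, 0.0342) at PD21. Gata3, which stands in the basal epidermis list too, fell by 1.37 (SE 0.30), 1.52 (SE 0.30) and 1.54 (SE 0.30) in the same order as Dlx3. Between divided and undivided bulge at PD21, Skil fell by 1.34 (SE 0.32, 0.00788) and Ski by 0.72 (SE 0.21, 0.0414) and Gata3 was 1.37 ± 0.30 higher (0.00435), and Gata3 fell by 1.40 (SE 0.30, 0.00435) at PD25 against PD21 in divided bulge.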

How the data were processed

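RNA of 18 sorted fractions from 6 mice was measured, 5 ng each after amplification, per the labels' protocols. The deposited values are probe set intensities on a linear scale, which the authors made with GCOS per the submitters' processing notes (no version is recorded there). The 2% trimmed mean was 500 on every array and array medians ran from 60.3 to 116.6, so the values were already scaled and were only taken to log2(signal + 16), a scale that understates changes of dim genes. Present calls were not used. Of the probe sets, 34945 had 1 gene symbol, 932 several and 9160 none listed, and only the first kind was used. Entrez identifiers matched 34741 of them to RefSeq, which changed 0 symbols.

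A probe set was tested if it exceeded its array's median on at least 3 of 18 arrays, and this let in dim members that were high in few groups. A single model of the 6 group means was fitted by limma 3.58.1 (R 4.3.3), using lmFit followed by eBayes with a trend of variance on mean signal, which left 12 residual and 12.2 prior degrees of freedom. The step was tested on simulated data. The named genes are all probe sets of the members, the 3 genes of highest Pearson r to each main probe set, and up to 4 passing genes per pathway list and comparison, in order of p. The members, pathway lists and marker lists were chosen with earlier results of these data known. Titles name the mouse, so the 3 fractions of a number and age come from 1 animal. Deviations from the group means of such fractions correlated at r = 0.07 to 0.44, with a fitted within-mouse correlation of 0.23. Alternatives were other pseudocounts, filters, normalisation, variance models, array weights, mouse and array-set blocks, 1 probe set per gene and leaving out each array. The array sets were seen in the values, and their use was chosen after seeing the data. With arrays, the 3 mice per group limit the precision.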

Additional observations from a re-analysis of the deposited data

Results flagged for a closer look

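In the fit without a block, Id4 was the 1 member whose contrasts differed between the ages by a test of the difference itself. With the mouse as a block, the division difference also changed for the main Bmpr1b probe set (adjusted p = 0.0198 as a random and 0.0253 as a fixed term). It changed too for Id3 (0.0382, fixed) and Id2 1422537_a_at (0.0417, fixed), and the divided bulge contrast for Id2 1422537_a_at (0.0276 and 0.0227). The other Bmpr1b probe sets had 0.28 ± 0.93 (1422872_at) and -0.60 ± 0.82 (1443720_s_at) for the division difference, without a call. The difference of divided from undivided bulge changed by 2.44 ± 0.40 on the log2 scale for 1423259_at and by 2.18 ± 0.38 for 1450928_at, as PD25 minus PD21. The difference of divided bulge from non-bulge cells changed by 2.32 ± 0.40 and 1.96 ± 0.38 for the same probe sets. Without the variance trend, 1450928_at lost that call (adjusted p = 0.0703). The 2 tests share the divided arrays. Without a block, the main Id4 probe set passed in neither test. It had 1.95 ± 0.62 for the division difference and 0.77 for the divided bulge contrast. Levels of 1423259_at were 12.21, 12.03 and 12.43 in divided and 12.42, 12.41 and 12.24 in undivided bulge at PD25, against 9.09, 9.37 and 9.85 in divided and 12.32, 11.54 and 12.16 in undivided bulge at PD21. Cd34 moved in the same direction (3.47 ± 0.64 and 2.67 ± 0.64), and its part in the Id4 result was not tested.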

How the results depend on the processing

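Over 8166 comparisons of a member result with its value under an alternative, including each array left out, 0 reversed, 7985 kept their direction and side of the threshold, 135 lost and 46 gained a call. Counts of the 9 members called through their main probe sets were 5 for divided bulge against non-bulge cells at PD25, 2 within the arrays of higher mean signal and 3 to 6 with 1 array left out. For divided bulge against non-bulge cells at PD21 the count was 1, 0 without the variance trend and 0 to 1 with an array left out. For divided against undivided bulge at PD21 it was 6, 0 within the arrays of lower mean signal, where 1 array stands against 1, and 4 to 6 with an array left out. For PD25 against PD21 in divided bulge it was 4, 2 and 0 within the arrays of higher and lower mean signal, and 1 to 5 with an array left out. For the change of the division difference it was 0, with 2 under quantile normalisation, under array weights and with the replicate block as a random mouse effect, 3 with the block as a fixed mouse term and with the array set as a block, 1 within the arrays of higher mean signal and 0 to 1 with an array left out. For the change of the divided bulge contrast it was 0, and 1 within the arrays of higher mean signal or, at most, with an array left out. Apart from the calls given with the results, the replicate block changed no other member call. Counts within a set of arrays rest on arms of 1 or 2 arrays, so their losses say nothing about stability. For undivided bulge at each age, the count of 6 stayed at 5 or 6 in all alternatives.

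Counts over all probe sets moved further. They were 1574 (580 to 2269 over the alternatives) for divided and 2004 (886 to 2819) for undivided bulge against non-bulge cells at PD25, 0 (0 to 33) for divided against undivided bulge at PD25, 30 (1 to 72) and 2100 (575 to 3222) at PD21, and 1494 (106 to 2380) for divided against undivided bulge at PD21. Between the ages they were 1377 (87 to 1765), 17 (8 to 55) and 12 (5 to 13) in divided, undivided and non-bulge cells. The changes of contrasts gave 202 (0 to 734) for division, 0 (0 to 3) for undivided and 229 (0 to 622) for divided bulge. The low ends came mostly from fits on 9 arrays. The cause of the other shifts was not tested. Signal near the array median limits Smad6, Bmpr1b and the non-bulge level of Smad7.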
